A study of Homo sapiens with 12 samples.

Results

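The nuclear genes for the subunits of the 5 oxidative phosphorylation complexes, with cytochrome c, were examined in KP4 and MiaPaca2 cells treated with trametinib or with its solvent. Members were taken by current gene symbol and protein-coding type, which gave 91 of the 58735 genes in the table. Of these, 38 belong to complex I, 4 to complex II, 10 to complex III, 19 to complex IV, 19 to complex V, and CYCS encodes cytochrome c. NDUFA4 and NDUFA4L2 keep a complex I name but were counted with complex IV, where the NDUFA4 protein is now placed. A low-count filter left 83 members among 16133 genes for testing, namely 37 of complex I, 4 of complex II, 10 of complex III, 14 of complex IV, 17 of complex V and CYCS.

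Oxidative phosphorylation is the main route to ATP in mitochondria. Complexes I and II pass electrons from NADH and succinate to ubiquinone, complex III passes them on to cytochrome c, complex IV reduces oxygen, and complex V uses the proton gradient built by complexes I, III and IV to make ATP. Complex II is wholly encoded in the nucleus and is also an enzyme of the tricarboxylic acid cycle, whereas each of the other complexes joins nuclear subunits to a few encoded by mitochondrial DNA. Pancreatic cancer cells with active RAS signalling also draw on glycolysis, and cells that outlive loss of RAS signalling have been described as leaning on mitochondrial respiration.

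KP4 and MiaPaca2 are established cell lines from human pancreatic ductal adenocarcinoma. The 4 groups were KP4 with 100 nM trametinib for 48 h, KP4 with DMSO for 48 h, MiaPaca2 with 100 nM trametinib for 48 h, and MiaPaca2 with DMSO for 48 h, with 3 libraries in each. Trametinib blocks MEK, the kinase that activates ERK, by binding beside its ATP site, and every group stood in the same serum-containing medium. Each line is a single line, and nothing in the labels says that the 3 libraries of a group were separate cultures, and the p-values thus rest on library-to-library spread that may be technical.

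Total counts ran from 20293688 to 28018129 per library. As a check of the treatment labels, 4 of 4 genes that report ERK activity (DUSP6, SPRY4, ETV4 and ETV5) were lower with trametinib in both lines, with log2 fold changes of −6.84 to −5.76, past edgeR's test in each case. The 7 ductal and epithelial markers summed to 226 to 234 CPM (counts scaled to library size with TMM factors) in KP4 trametinib, 362 to 375 in KP4 DMSO, 738 to 754 in MiaPaca2 trametinib and 1829 to 2201 in MiaPaca2 DMSO. Single markers moved in both directions with trametinib. Their log2 fold changes ran from −2.21 to 3.39 in KP4 (median 0.30) and from −1.80 to 3.95 in MiaPaca2 (median −0.86). The 6 fibroblast markers summed to 16.6 to 17.7 CPM in KP4 trametinib against 8.71 to 9.98 in KP4 DMSO, and to 244 to 259 in MiaPaca2 trametinib against 76.8 to 129 in MiaPaca2 DMSO, and 1 of them was at 0 counts in each DMSO group. The 5 immune and 3 endothelial markers summed to at most 7.26 and 2.90 CPM in any library. The part of these shifts in the results was not tested. MiaPaca2 DMSO replicate 2 stood apart from the others of its group, with chi-square over its degrees of freedom, across genes, at 14.5 and 13.3 against replicates 1 and 3, where other groups had 2.02 to 2.89 between libraries, and replicates 1 and 3 themselves had 7.70.

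Before any comparison, the counts of the members were set against the annotation. In GENCODE 29, 17 members share between 36.9% and 100% of their coding bases with another gene on the same strand. The 15 of these that are not readthrough genes had a median of 2883 counts over the 12 libraries, with a highest value of 11260, against a median of 25530 for the 74 members that share none. NDUFA7, NDUFB8 and NDUFV2, which are standing subunits of complex I, had 95, 398 and 792 counts over all libraries. How reads that fall in 2 genes were counted is not given in the sources used here, and the part of the overlap in these low counts was not tested. Levels of these 15 genes are therefore not read as levels of their mRNA.

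**Figure D1:**
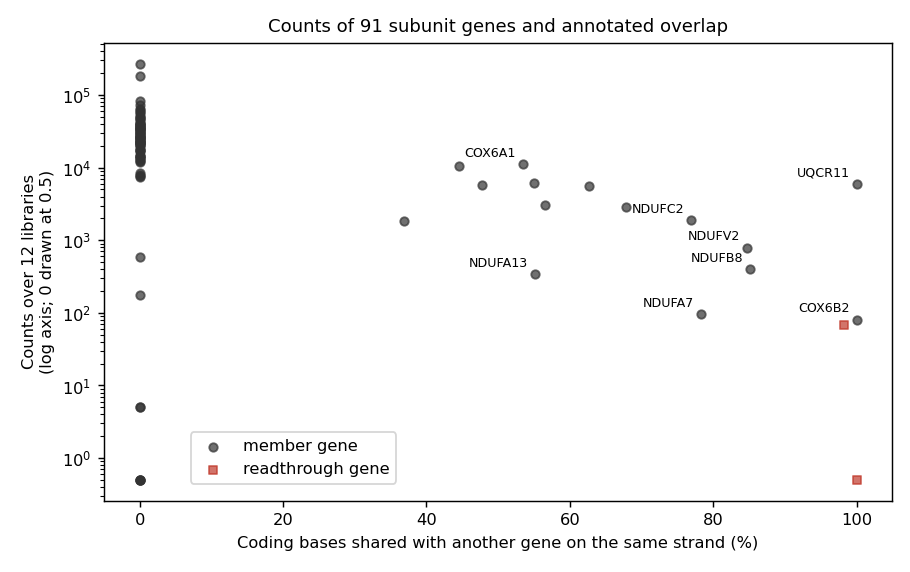
Counts of each member summed over the 12 libraries (log axis, 0 drawn at 0.5) against the percentage of its coding bases shared with another gene on the same strand. Members that share none reach 271418 counts, and the 15 that share coding bases and are not readthrough genes stay at or under 11260. Squares mark the 2 readthrough genes.

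The 8 members that were not tested are tissue-restricted isoforms, copies and readthrough genes. NDUFC2-KCTD14, COX4I2, COX6A2, COX7A1 and COX7B2 had 0 counts in all 12 libraries, which at 3 counts allows up to 0.00997 CPM over the 12 libraries, counting error only. COX8C and ATP5MGL had 5 counts each and ATP5MF-PTCD1 had 69. COX6A2 and COX7A1 are known as the heart and skeletal muscle isoforms of complex IV subunits, COX4I2 as the lung isoform of subunit IV, and COX7B2 and COX8C as testis-enriched forms. Their common partners were all detected: COX4I1 had 262, 254 and 261 CPM in KP4 trametinib against 249, 263 and 271 in KP4 DMSO, and 270.1, 291 and 279 in MiaPaca2 trametinib against 296, 292 and 322 in MiaPaca2 DMSO.

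Levels between genes were compared per kilobase of exon, over the members that share no coding base. The 30 such genes of complex I summed to 1341 ± 7.88 CPM per kb in KP4 trametinib against 1399 ± 11.0 in KP4 DMSO, and to 1453 ± 67.6 in MiaPaca2 trametinib against 1526 ± 95.5 in MiaPaca2 DMSO (SD, n = 3 throughout). The 3 genes of complex II summed to 81.6 ± 1.28 CPM per kb in KP4 trametinib against 86.9 ± 0.765 in KP4 DMSO, and to 86.5 ± 2.16 in MiaPaca2 trametinib against 109 ± 2.60 in MiaPaca2 DMSO. The 9 genes of complex III summed to 373 ± 3.36 CPM per kb in KP4 trametinib against 421 ± 4.47 in KP4 DMSO, and to 382 ± 11.0 in MiaPaca2 trametinib against 487 ± 30.7 in MiaPaca2 DMSO. For the sums of complexes II and III the trametinib libraries lay below the DMSO libraries in both lines without overlap. For complex I they did so in KP4, while in MiaPaca2 the 2 sets of libraries overlapped. The complex II sum of KP4 fell through SDHB alone, at 59.9 CPM per kb with trametinib against 65.9 with DMSO. SDHA (16.9 against 16.3) and SDHC (4.85 against 4.58) had slightly higher means with trametinib there.

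The 16 genes of complex IV summed to 479.6 ± 8.14 CPM per kb in KP4 trametinib against 464 ± 12.7 in KP4 DMSO, and to 533 ± 22.7 in MiaPaca2 trametinib against 527 ± 42.9 in MiaPaca2 DMSO. These libraries overlapped between treatments in both lines. The 15 genes of complex V summed to 863 ± 3.53 CPM per kb in KP4 trametinib against 877 ± 7.19 in KP4 DMSO, and to 865 ± 24.7 in MiaPaca2 trametinib against 958 ± 36.5 in MiaPaca2 DMSO, with no overlap in either line. CYCS, the mobile electron carrier that also starts the caspase cascade when it leaves mitochondria, stood at 34.1 CPM per kb in KP4 trametinib against 35.7 in KP4 DMSO, and at 30.2 in MiaPaca2 trametinib against 36.3 in MiaPaca2 DMSO. ATP5F1B, the catalytic beta subunit of the F1 head, had the highest level per length of all members, with 395 CPM per kb in KP4 trametinib and 414 in MiaPaca2 DMSO. The sums depend on the length used: with the longest annotated transcript, the mean of the 4 groups was 204 CPM per kb for complex II and 778 for complex IV, against 90.9 and 501.0 with the union of exons.

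In KP4, trametinib was followed by lower mRNA of UQCRH, CYC1, NDUFS3 and NDUFAB1 and higher mRNA of UQCRC2 and NDUFB5, while most members did not pass the test. Of 83 members, 7 rose and 14 fell past edgeR's quasi-likelihood test (Benjamini-Hochberg adjusted p under 0.05 over all genes tested), 25.3% of the members, where 48.1% of all genes tested were called, 23.9% higher and 24.1% lower. The median log2 fold change was −0.030 for the members and 0 for all genes. Complex III had the most called for its size, with 1 higher and 4 lower of 10, but this share (50%) was near the 48.1% of all genes tested. The shares of the other complexes were below it. Complex I had 2 higher and 7 lower of 37, complex II 1 lower of 4, complex IV 3 higher and 1 lower of 14, and complex V 1 higher and 1 lower of 17, while CYCS did not pass (−0.063 ± 0.043). In bulk RNA, fewer cells that hold an mRNA and less of it per cell cannot be told apart.

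The deepest fall in KP4 was that of UQCRH, the acidic hinge protein of complex III that helps cytochrome c dock on cytochrome c1. UQCRH had 71.6, 68.2 and 65.4 CPM in the KP4 trametinib libraries against 107, 97.1 and 94.4 CPM in KP4 DMSO, a log2 fold change of −0.54 ± 0.056 (edgeR adjusted p = 9.48e-09). The groups did not overlap, and the mRNA was 1.45-fold lower. UQCRHL, a near-identical intronless copy of UQCRH, had at most 1.01 ± 0.564 CPM in any group mean, and the reads of the 2 genes could be split between them.

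Within complex III of KP4, CYC1, the haem-bearing cytochrome c1, fell by 1.17-fold with a log2 fold change of −0.22 ± 0.059 (edgeR adjusted p = 0.00346). UQCRQ and UQCR10, small subunits around the catalytic core, fell with log2 fold changes of −0.22 ± 0.050 and −0.17 ± 0.052 (edgeR adjusted p = 6.35e-04 and 0.00837). UQCRC2, a core scaffold subunit, went the other way, with 154, 152 and 152 CPM in KP4 trametinib against 137, 131 and 131 CPM in KP4 DMSO and a log2 fold change of 0.20 ± 0.046 (edgeR adjusted p = 6.98e-04). All 3 UQCRC2 values with trametinib lay above all 3 with DMSO.

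In complex I of KP4, NDUFS3, a catalytic core subunit of the peripheral arm, had 48.6, 49.7 and 53.1 CPM with trametinib against 62.4, 66.5 and 66.1 CPM with DMSO, a log2 fold change of −0.37 ± 0.061 (edgeR adjusted p = 1.68e-05). NDUFAB1, the mitochondrial acyl carrier protein that also serves fatty acid and lipoate synthesis, had 38.9, 40.5 and 39.4 CPM with trametinib against 46.8, 49.3 and 49.6 CPM with DMSO, a log2 fold change of −0.30 ± 0.058 (edgeR adjusted p = 1.31e-04). Neither gene overlapped between groups. The other 5 that fell were the accessory subunits NDUFA12, NDUFB6, NDUFB9, NDUFC1 and NDUFS5, with log2 fold changes of −0.25 to −0.17. NDUFB5, an accessory subunit of the membrane arm, rose (log2 fold change 0.30 ± 0.050, edgeR adjusted p = 1.51e-05).

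In complexes II, IV and V of KP4, SDHB, the iron-sulfur subunit of succinate dehydrogenase, fell to 146, 145 and 152 CPM with trametinib against 161, 163 and 164 CPM with DMSO (−0.14 ± 0.040, edgeR adjusted p = 0.00525). SDHA, SDHC and SDHD, the flavoprotein and both membrane anchors, had log2 fold changes of 0.046 ± 0.048, 0.083 ± 0.051 and −0.14 ± 0.081 and did not pass. COX5B, a nuclear subunit of cytochrome oxidase, rose with a log2 fold change of 0.19 ± 0.064, COX6C and COX7A2L rose with 0.14 ± 0.059 and 0.11 ± 0.047, and COX8A, which shares 55.1% of its coding bases with another gene, fell with −0.47 ± 0.14. In complex V, ATP5PD of the peripheral stalk rose (0.15 ± 0.044) and ATP5PF, coupling factor 6, fell (−0.19 ± 0.043, edgeR adjusted p = 5.25e-04). NDUFA7 (0.37 ± 0.57), NDUFB8 (−0.42 ± 0.33), UQCRHL (0.32 ± 0.54) and ATP5MF (−0.26 ± 0.14) had the extreme values of their complexes in KP4 and did not pass.

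The KP4 counts depend on which libraries enter the fit. With only the KP4 libraries, 13 members rose and 23 fell, the higher count ran from 3 to 11 and the lower from 9 to 19 when single libraries were left out, and those that moved a count by over 1.5 times were KP4 DMSO replicates 2 (4 higher) and 3 (3 higher), KP4 trametinib replicates 3 (4 higher) and 1 (9 lower), and MiaPaca2 DMSO replicate 2 (11 higher). Without that last library complex I had 4 higher and 10 lower, complex III 2 and 4, and complex IV 4 and 3. In that fit 4180 of 16596 genes tested were called higher and 4285 lower in KP4. For the fit with only the KP4 libraries the share of all genes called is not given here. The calls for COX5B, COX8A, ATP5PD and SDHB were each lost without at least 1 single KP4 library (COX5B without KP4 DMSO replicate 2, KP4 DMSO replicate 3 or KP4 trametinib replicate 3, ATP5PD without KP4 DMSO replicate 3, COX8A and SDHB without KP4 trametinib replicate 1).

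**Figure D2:**
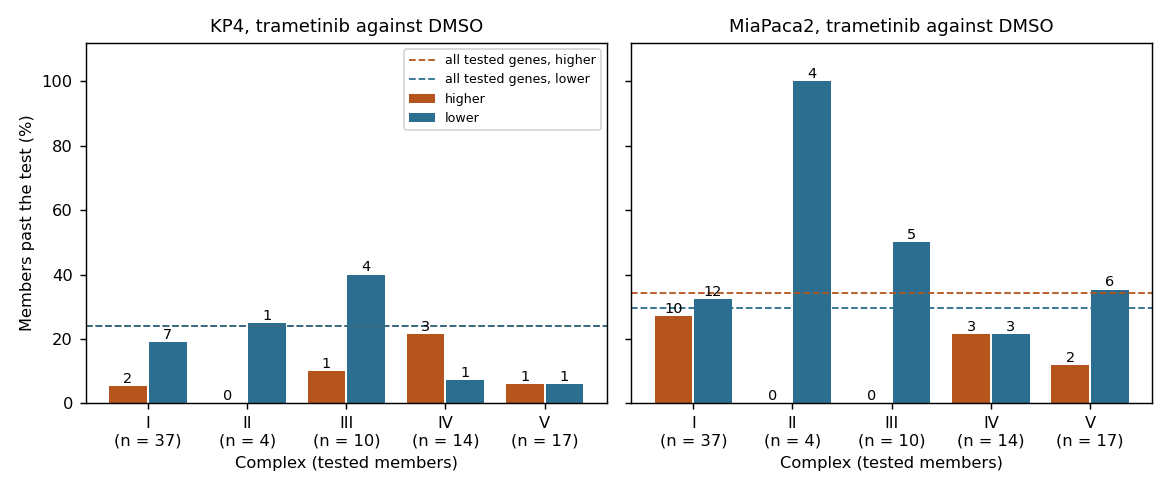
Percentage of the tested members of each complex that were higher or lower with trametinib (edgeR adjusted p under 0.05), KP4 on the left and MiaPaca2 on the right, with the number of genes above each bar. Dashed lines mark the same percentages over all 16133 genes tested, 23.9 and 24.1 in KP4 and 34.4 and 29.7 in MiaPaca2. In MiaPaca2 all 4 complex II genes and 5 of 10 complex III genes were lower and none of either was higher.

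In MiaPaca2, trametinib was followed by lower mRNA of SDHA, SDHB and SDHC in complex II, of CYC1, UQCRH, UQCRC1, UQCRC2 and UQCRFS1 in complex III and of CYCS, and complex I moved in both directions. Of 83 members, 15 rose and 31 fell past edgeR's test, 55.4% of the members, where 64% of all genes tested were called, 34.4% higher and 29.7% lower. The median log2 fold change was −0.044 for the members and 0.052 for all genes. Complex II had 0 higher and 4 lower of 4 (median −0.30), complex III 0 higher and 5 lower of 10 (median −0.27), complex I 10 higher and 12 lower of 37, complex IV 3 higher and 3 lower of 14, and complex V 2 higher and 6 lower of 17, and CYCS fell. Without MiaPaca2 DMSO replicate 2, 13 members rose and 33 fell, complex II again had 4 lower of 4, complex III had 6 lower of 10 and complex V had 8 lower of 18. In that fit 5628 of 16596 genes tested were called higher and 4844 lower.

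CYC1 fell most in MiaPaca2, with 135, 143 and 139.6 CPM in the trametinib libraries against 228, 219.8 and 272 CPM in DMSO, a log2 fold change of −0.79 ± 0.059 (edgeR adjusted p = 8.34e-11). The CYC1 groups did not overlap, and the mRNA was 1.72-fold lower. UQCRH had 70.4, 74.7 and 72.4 CPM with trametinib against 114, 105 and 118 CPM with DMSO, a log2 fold change of −0.63 ± 0.056 (edgeR adjusted p = 2.33e-10). Both core scaffolds fell too: UQCRC2 had 167, 184 and 171 CPM against 240.4, 218 and 231 CPM in MiaPaca2 DMSO (−0.40 ± 0.045, edgeR adjusted p = 1.76e-08), and UQCRC1 had a log2 fold change of −0.22 ± 0.038 (edgeR adjusted p = 1.77e-05). UQCRFS1, the Rieske iron-sulfur protein, was the fifth, at −0.32 ± 0.070 (edgeR adjusted p = 2.92e-04). UQCRB, which had the highest value of the complex, did not pass (0.076 ± 0.068).

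All 4 genes of succinate dehydrogenase were called lower in MiaPaca2, with SDHD among the genes whose counts are not read as levels of their mRNA. SDHA, the flavoprotein that oxidises succinate, had 219.6, 229 and 231 CPM with trametinib against 285, 268 and 312 CPM with DMSO, a log2 fold change of −0.35 ± 0.046 (edgeR adjusted p = 2.84e-07). SDHB had 132, 138 and 130.1 CPM with trametinib against 168, 169 and 169 CPM with DMSO, a log2 fold change of −0.34 ± 0.041 (edgeR adjusted p = 6.65e-08). The membrane anchors had log2 fold changes of −0.15 ± 0.051 for SDHC (edgeR adjusted p = 0.0114) and −0.27 ± 0.085 for SDHD (edgeR adjusted p = 0.00680). None of the 4 genes overlapped between groups. The share of all genes without overlap was not counted in this or any other comparison. The SDHC call was lost without MiaPaca2 trametinib replicate 1 (edgeR adjusted p = 0.0797), and SDHD shares 47.7% of its coding bases with another gene.

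Complex I moved in both directions in MiaPaca2. Among the nuclear catalytic core subunits, NDUFS1, NDUFS3 and NDUFV2 fell, NDUFS8 rose, and NDUFS7 and NDUFV1 did not pass. NDUFS1, the largest core subunit with iron-sulfur clusters of the peripheral arm, had a log2 fold change of −0.27 ± 0.043 (edgeR adjusted p = 5.85e-06). NDUFAB1 had 42.4, 44.7 and 41.9 CPM with trametinib against 67.1, 61.2 and 66.9 CPM with DMSO, a log2 fold change of −0.60 ± 0.057 (edgeR adjusted p = 1.06e-09). Those libraries did not overlap. The NDUFV2 call (−0.68 ± 0.24) rests on 2.01 ± 0.445 CPM in MiaPaca2 trametinib and 3.22 ± 0.307 CPM in MiaPaca2 DMSO in a gene that shares 84.7% of its coding bases, and it was lost without MiaPaca2 trametinib replicate 3.

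The 9 accessory subunits that rose in MiaPaca2 were NDUFA1, NDUFA2, NDUFA5, NDUFA9, NDUFB2, NDUFB4, NDUFB5, NDUFC1 and NDUFC2, by 0.17 to 0.48 on the log2 scale. NDUFB5 had 78.3, 80.5 and 82.4 CPM with trametinib against 65.4, 61.8 and 66.5 CPM with DMSO, a log2 fold change of 0.32 ± 0.051 (edgeR adjusted p = 5.55e-06). NDUFC1, a small membrane-arm subunit, had 67.8, 71.4 and 69.8 CPM with trametinib against 56.1, 56.9 and 58.7 CPM with DMSO, a log2 fold change of 0.28 ± 0.055 (edgeR adjusted p = 7.59e-05). For both genes all trametinib libraries lay above all DMSO libraries. NDUFA2 and NDUFS8 passed the test although their libraries overlapped between groups, and NDUFA9 and NDUFC2 share 67.9% and 76.9% of their coding bases with another gene. NDUFB8 (0.52 ± 0.31) in complex I and COX6B2 (1.00 ± 0.68) in complex IV had the highest values of their complexes and did not pass. The NDUFA9 call was lost without MiaPaca2 DMSO replicate 1 or MiaPaca2 trametinib replicate 2.

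In complex V of MiaPaca2, 3 subunits of the F1 head, 1 of the peripheral stalk and 2 of the 3 genes for subunit c fell. ATP5F1B had 812, 825 and 806 CPM with trametinib against 959, 972 and 951 CPM with DMSO, a log2 fold change of −0.24 ± 0.030 (edgeR adjusted p = 1.20e-07), with no overlap. ATP5F1A (alpha), ATP5F1C (gamma) and ATP5PB (peripheral stalk) fell with log2 fold changes of −0.23 ± 0.038, −0.20 ± 0.055 and −0.34 ± 0.049. The 3 genes for the rotor ring subunit c, which encode the same mature protein, did not move together. ATP5MC1 had 57.6, 55.0 and 53.3 CPM with trametinib against 68.9, 71.4 and 77.2 CPM with DMSO (−0.39 ± 0.057, edgeR adjusted p = 1.53e-06), ATP5MC3 fell as well (−0.26 ± 0.048), and ATP5MC2 rose (0.26 ± 0.052, edgeR adjusted p = 1.09e-04). ATP5MK, a small membrane subunit, was the other that rose (0.28 ± 0.085), although its libraries overlapped between groups, and the call was lost without MiaPaca2 trametinib replicate 2.

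In complex IV of MiaPaca2, COX5A fell (−0.35 ± 0.053, edgeR adjusted p = 2.61e-06), COX4I1 and COX6A1 (53.5% of coding bases shared) fell with log2 fold changes of −0.12 and −0.19, and COX7A2 (0.30 ± 0.061), COX5B (0.26 ± 0.064) and COX7A2L (0.12 ± 0.048) rose. CYCS had 133, 138 and 133 CPM with trametinib against 165, 166 and 154 CPM with DMSO, a log2 fold change of −0.27 ± 0.044 (edgeR adjusted p = 8.17e-06), with no overlap. The median of the members turned to 0.036 without MiaPaca2 DMSO replicate 3, so the sign of the median rests on that library, while the count of lower members ran from 27 to 33 over all 12 fits that each left out 1 library.

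**Figure D3:**
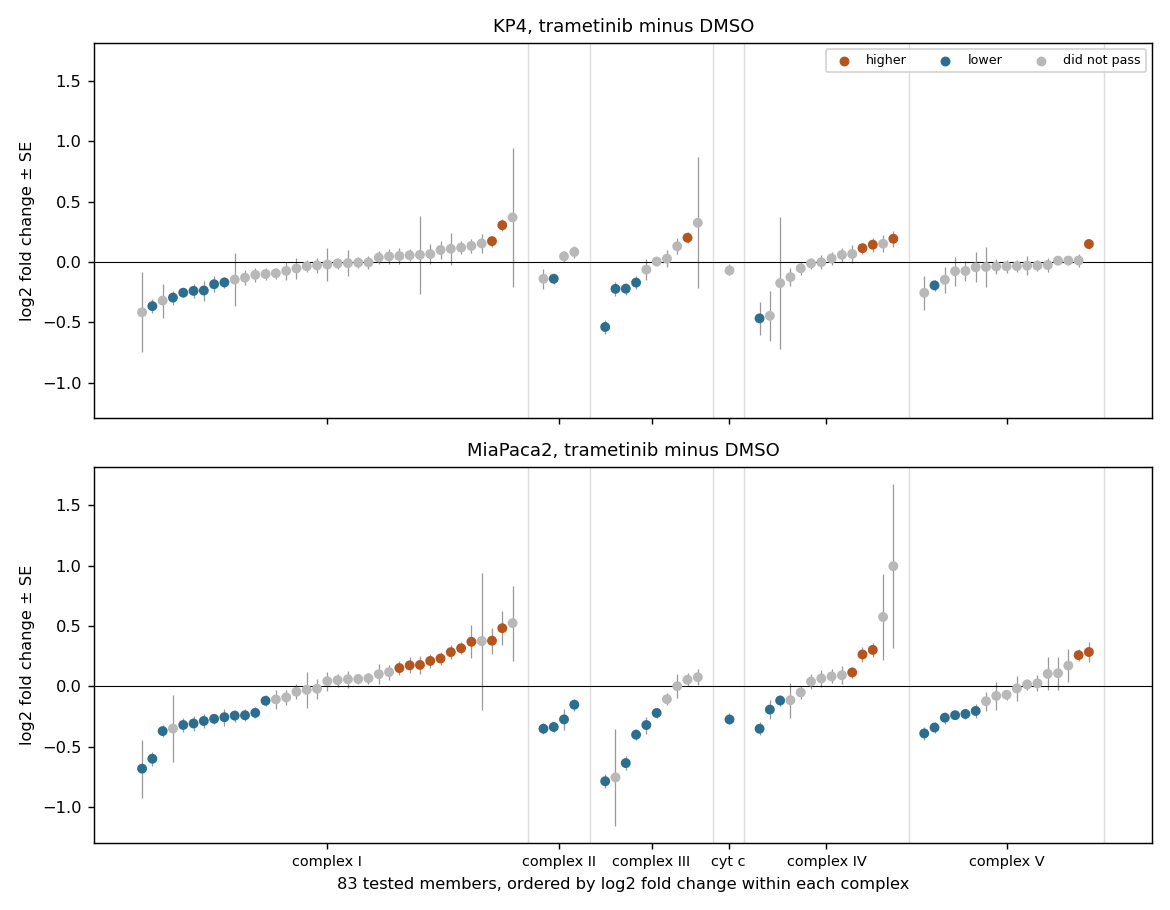
Log2 fold change with trametinib of each of the 83 tested members with its standard error, in KP4 (upper panel) and MiaPaca2 (lower panel), ordered by value within each complex so that the order differs between panels. Colours mark members higher, lower or not past edgeR's test. The lowest called values are −0.54 for UQCRH in KP4 and −0.79 for CYC1 in MiaPaca2.

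Of the members, 6 were called lower in both lines and 3 higher in both. The share of all genes called alike in both lines was not counted. UQCRH, CYC1, SDHB, NDUFAB1, NDUFS3 and NDUFS5 fell in both, and NDUFB5, COX5B and COX7A2L rose in both. UQCRC2 rose in KP4 and fell in MiaPaca2, NDUFC1 fell in KP4 and rose in MiaPaca2, and 28 members were called in neither line.

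The promoters of 5 of these genes are shown to set genes that fell or rose in both lines beside SDHA, which fell in MiaPaca2 alone past the test and whose response differed between the lines. The genes called alike in both lines are shown in part only, with SDHB, NDUFS5, NDUFB5 and COX7A2L among those left out. Each line gives the 130 bases before the RefSeq start of the gene (GRCh38.p14), 5′ to 3′ on the gene's strand, with each CCGGAA, the core that ETS factors such as GABPA bind, in capitals on either strand (TTCCGG on the other). The positions are chr1:46303568-46303697 on the plus strand for UQCRH, chr16:23596317-23596446 on the minus strand for NDUFAB1, chr11:47578944-47579073 on the plus strand for NDUFS3, chr2:97645932-97646061 on the plus strand for COX5B and chr5:218190-218319 on the plus strand for SDHA.
UQCRH: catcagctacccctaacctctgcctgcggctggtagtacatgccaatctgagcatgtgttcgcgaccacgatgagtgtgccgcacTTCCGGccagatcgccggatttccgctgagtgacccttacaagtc
NDUFAB1: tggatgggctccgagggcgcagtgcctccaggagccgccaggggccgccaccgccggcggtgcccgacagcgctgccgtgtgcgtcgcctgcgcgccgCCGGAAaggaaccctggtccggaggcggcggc
NDUFS3: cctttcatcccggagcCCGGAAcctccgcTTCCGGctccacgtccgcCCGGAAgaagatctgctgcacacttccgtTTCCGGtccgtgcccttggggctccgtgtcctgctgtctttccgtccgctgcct
COX5B: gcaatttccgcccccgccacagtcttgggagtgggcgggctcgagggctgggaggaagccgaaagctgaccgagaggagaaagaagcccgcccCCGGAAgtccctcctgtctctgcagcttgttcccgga
SDHA: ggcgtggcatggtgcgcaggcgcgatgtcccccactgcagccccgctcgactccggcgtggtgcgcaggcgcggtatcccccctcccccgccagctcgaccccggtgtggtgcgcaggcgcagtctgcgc
The core stands 4 times in the NDUFS3 stretch, 1 time each in those of UQCRH, NDUFAB1 and COX5B, and not in that of SDHA. This holds for the 130 bases printed: the 300-base windows counted next hold a core at position −248 for SDHA, and for COX5B one more at −5 that runs past the start, so that 5 of 5 windows hold it. Of the genes left out, SDHB has a core at −128. None is recorded for NDUFS5, NDUFB5 or COX7A2L, of which any without a matched promoter was not searched. The printed stretches thus give no share of the genes called alike that hold the core.

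RefSeq promoters of 300 bases, 250 before the start and 50 after it, were matched for 71 of the 91 members by symbol. CCGGAA stood on either strand in 30 of these 71 (42.3%), against 22.9% of 15843 protein-coding promoters. The core motif of the factor NRF1 stood in 4 members (5.63%) against 1.75% of all, and the E-box CACGTG in 7 (9.86%) against 8.88%. CCGGAA was found in 13 of 25 matched members that fell in MiaPaca2 (52%) and in 3 of 13 that rose (23.1%), and in KP4 in 7 of 11 that fell (63.6%) and 2 of 4 that rose. No motif searched holds another, and a match describes letters in the window, not binding.

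**Figure D4:**
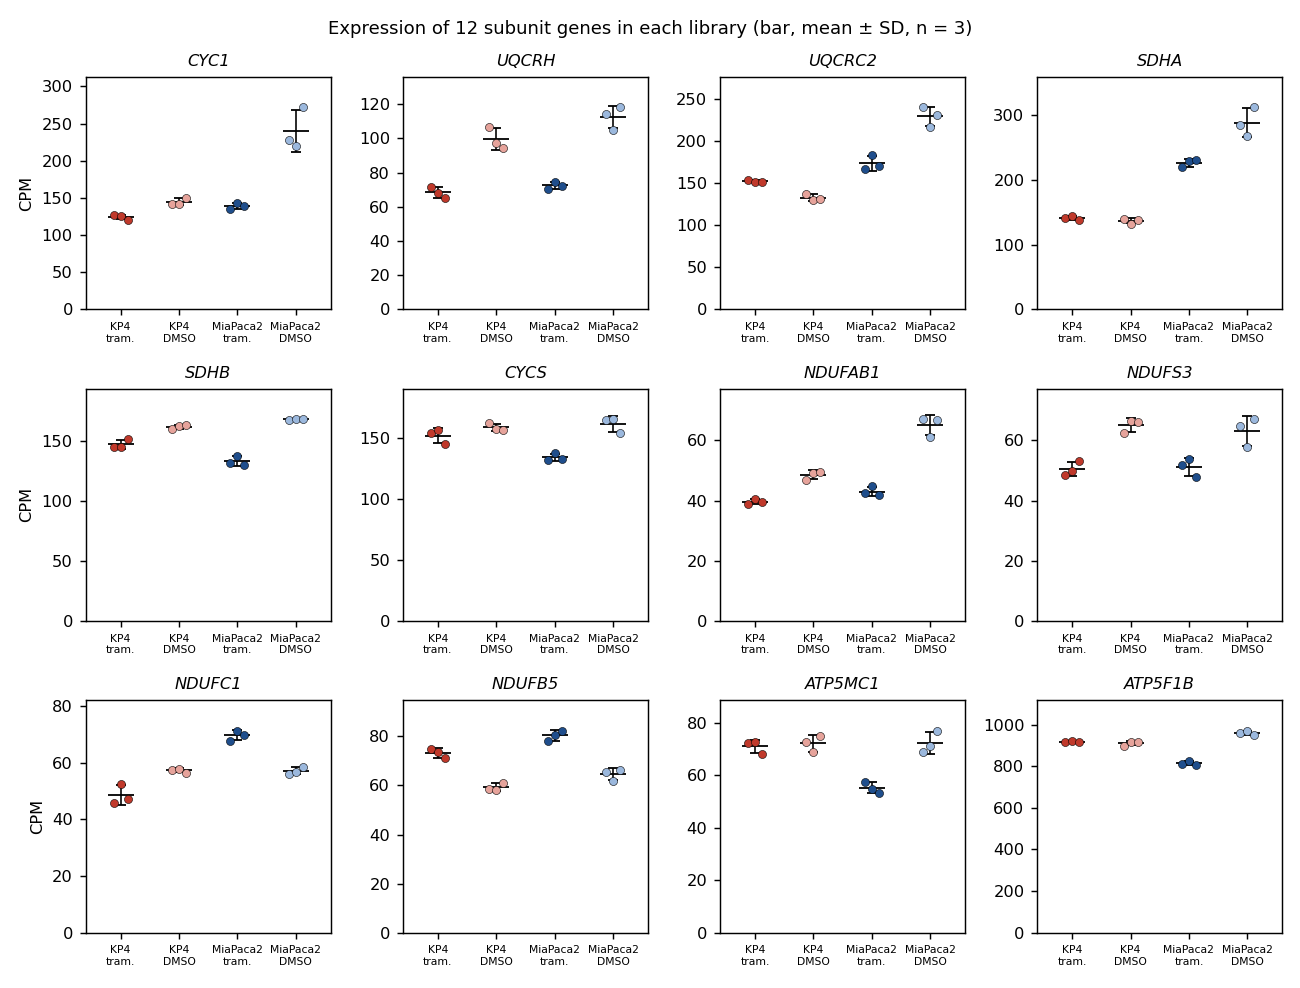
CPM of 12 members in each library, with trametinib left of DMSO for each line, and the mean ± SD (n = 3). CYC1, UQCRH, NDUFS3 and NDUFAB1 lie lower with trametinib in both lines, NDUFB5 lies higher in both, UQCRC2 and NDUFC1 move in opposite directions, and SDHA, ATP5MC1 and ATP5F1B lie lower with trametinib in MiaPaca2.

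The responses of the lines were then compared directly, as the KP4 log2 fold change minus that of MiaPaca2. It was higher in KP4 for 19 members and lower for 7 by edgeR's test, 31.3% of the members, where 35.7% of all genes tested were called, 16% higher and 19.7% lower. The median difference was 0.021 for the members and −0.052 for all genes. Complex III had 4 higher and 1 lower of 10, complex II 3 higher of 4, complex V 5 higher and 2 lower of 17, complex I 5 higher and 3 lower of 37 and complex IV 1 higher and 1 lower of 14, and CYCS was higher. All 19 higher ones are genes that fell in MiaPaca2, a comparison that shares its libraries with this one, and in KP4 UQCRC2 rose, NDUFAB1, SDHB and CYC1 fell and 14 did not pass.

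UQCRC2 had the largest called difference, 0.60 ± 0.064 (edgeR adjusted p = 4.23e-08), from 0.20 in KP4 and −0.40 in MiaPaca2. For CYC1 the difference was 0.56 ± 0.083 (edgeR adjusted p = 1.40e-05), from −0.22 in KP4 and −0.79 in MiaPaca2. For SDHA it was 0.40 ± 0.067 (edgeR adjusted p = 3.84e-05). On the other side, NDUFC1 differed by −0.52 ± 0.079 (edgeR adjusted p = 7.96e-06) and NDUFB9 by −0.32 ± 0.052 (edgeR adjusted p = 2.85e-05).

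For UQCRH the difference was 0.096 ± 0.079, for NDUFB5 −0.012 ± 0.071 and for COX5B −0.073 ± 0.091, and none passed edgeR's test (adjusted p = 0.375, 0.928 and 0.578). SDHD (0.13 ± 0.12), NDUFV2 (0.53 ± 0.33), NDUFB8 (−0.94 ± 0.45), UQCRHL (1.08 ± 0.67), COX6B2 (−1.17 ± 0.88) and ATP5MF (−0.36 ± 0.19) had the extreme values of their complexes and did not pass either. The count of higher members ran from 19 to 27 when single libraries were left out, and without MiaPaca2 DMSO replicate 2 complex I had 9 higher and complex V 8. In that last fit 3031 of 16596 genes tested were called higher. The count of lower members was 4 with RLE scaling, 15 without MiaPaca2 DMSO replicate 3, 2 without KP4 trametinib replicate 1, 3 without MiaPaca2 trametinib replicate 2, and 4 without KP4 DMSO replicate 1, KP4 trametinib replicate 2 or MiaPaca2 trametinib replicate 3. The median difference turned to −0.024 without MiaPaca2 DMSO replicate 3.

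Between the lines, most called subunit mRNAs were lower in KP4 than in MiaPaca2. In DMSO, 11 members were higher and 40 lower in KP4 by edgeR's test, 61.4% of the members, where 63.2% of all genes tested were called, 32% higher and 31.2% lower, and the median was −0.13 for the members and 0.025 for all genes. In trametinib, 11 were higher and 36 lower, 56.6% of the members against 56.3% of all genes tested (26.5% higher and 29.8% lower), with a median of −0.13 for the members and −0.0070 for all genes. The 2 comparisons share no library. Of the members, 27 were lower and 6 higher in KP4 under both treatments, and ATP5F1B was lower in DMSO and higher in trametinib. The share of all genes called alike under both treatments was not counted.

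SDHA was lower in KP4 under both treatments. It had 139.9, 132 and 139 CPM in KP4 DMSO against 285, 268 and 312 CPM in MiaPaca2 DMSO, a log2 difference of −1.08 ± 0.047 (edgeR adjusted p = 2.34e-16), and 141, 145 and 138 CPM in KP4 trametinib against 219.6, 229 and 231 CPM in MiaPaca2 trametinib (−0.68 ± 0.048, edgeR adjusted p = 3.91e-12). NDUFB9 was higher in KP4, with 324, 331 and 325 CPM in KP4 DMSO against 176, 180.0 and 185 CPM in MiaPaca2 DMSO, a log2 difference of 0.86 ± 0.037 (edgeR adjusted p = 1.43e-16). Neither gene overlapped between lines. NDUFB9, CYC1, UQCRB and COX6C all lie on chromosome 8, and in DMSO NDUFB9 was higher in KP4 while CYC1 (−0.73 ± 0.058), UQCRB (−0.30 ± 0.068) and COX6C (−0.25 ± 0.059) were lower.

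NDUFA4L2, a paralogue of NDUFA4 known as a hypoxia-induced gene, was low in both lines but higher in KP4. NDUFA4L2 had 3.01, 3.30 and 3.33 CPM in KP4 DMSO against 0.619, 1.36 and 0.443 CPM in MiaPaca2 DMSO, a log2 difference of 1.98 ± 0.28 (edgeR adjusted p = 6.64e-07). NDUFA4 itself had 80.5 ± 4.73 CPM in KP4 DMSO and 79.3 ± 4.69 CPM in MiaPaca2 DMSO (0.021 ± 0.058) and passed in none of the 5 comparisons. In DMSO, UQCRC2 (−0.79 ± 0.045) and COX7C (−0.61 ± 0.070) were lower in KP4, as were ATP5PO (−0.84 ± 0.15) and NDUFA13 (−0.81 ± 0.29), which share 62.6% and 55.2% of their coding bases, and ATP5MC2 (0.45 ± 0.051), UQCR10 (0.38 ± 0.054) and UQCR11 (0.34 ± 0.091) were higher. The NDUFA13 call was lost without KP4 DMSO replicate 3 (edgeR adjusted p = 0.0703) or MiaPaca2 DMSO replicate 3 (edgeR adjusted p = 0.111). UQCRHL had the lowest value of all, with 0.356, 0.272 and 0.358 CPM in KP4 DMSO against 1.61, 0.937 and 0.487 CPM in MiaPaca2 DMSO (−1.62 ± 0.45, edgeR adjusted p = 0.00251), and its call was lost without MiaPaca2 DMSO replicate 1 (edgeR adjusted p = 0.0542). SDHC was lower in KP4 DMSO (−0.37 ± 0.051), while SDHB (−0.052 ± 0.040), SDHD (−0.097 ± 0.081) and CYCS (−0.025 ± 0.043) did not pass.

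In trametinib the difference was −0.19 ± 0.045 for UQCRC2 and −0.16 ± 0.060 for CYC1, and ATP5PO (−0.99 ± 0.15) was lower and NDUFA4L2 (0.96 ± 0.27) higher in KP4. NDUFB8 was called lower in KP4 trametinib (−0.87 ± 0.32) at 0.980 ± 0.263 CPM against 1.85 ± 0.782 CPM in MiaPaca2 trametinib (SD, n = 3), but its libraries overlapped, it shares 85.2% of its coding bases, and the call was lost with limma-voom and when any 1 of 4 libraries was left out (KP4 trametinib replicates 2 and 3 and MiaPaca2 trametinib replicates 2 and 3, adjusted p from 0.0587 to 0.158 by edgeR). NDUFS4 (−0.60 ± 0.083) and COX7C (−0.53 ± 0.069) were lower in KP4 trametinib too, and ATP5MC1 (0.36 ± 0.057), UQCR11 (0.28 ± 0.092) and ATP5PD (0.24 ± 0.045) were higher. UQCR11 shares 100% of its coding bases, and its call was lost without MiaPaca2 trametinib replicate 3 (edgeR adjusted p = 0.134). CYCS (0.18 ± 0.044) and SDHB (0.14 ± 0.041) were higher in KP4 trametinib, SDHD (0.037 ± 0.085) and UQCRHL (−0.54 ± 0.48) did not pass, and the lower call of SDHC (−0.14 ± 0.051) was lost under 6 settings, among them leaving out KP4 trametinib replicate 1 or 2 or MiaPaca2 trametinib replicate 2 or 3 (edgeR adjusted p from 0.0542 to 0.229). The count of members lower in KP4 trametinib was 23 without KP4 trametinib replicate 1.

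Summed over genes, the CPM of the mitochondrially encoded subunits lay higher with trametinib and that of the nuclear members lower. Such sums weigh the genes with the highest counts most and do not describe each gene. Of the 83 nuclear members tested, 62 did not pass edgeR's test in KP4, and in MiaPaca2 15 rose and 31 fell. The 91 nuclear members summed to 7707 to 7741 CPM in KP4 trametinib against 7813 to 7944 in KP4 DMSO, and to 7875 to 8329 in MiaPaca2 trametinib against 8465 to 9353 in MiaPaca2 DMSO. The 13 mitochondrial mRNAs summed to 47961 to 50434 CPM in KP4 trametinib against 38158 to 40148 in KP4 DMSO, and to 32924 to 35129.9 in MiaPaca2 trametinib against 19564 to 29588 in MiaPaca2 DMSO. On this TMM-scaled CPM the groups did not overlap in any of these 4 comparisons. As a share of all counts, the nuclear members overlapped in KP4, at 0.780 to 0.786% with trametinib against 0.785 to 0.799% with DMSO, and did not in MiaPaca2, at 0.785 to 0.831% with trametinib against 0.835 to 0.909% with DMSO. Per count of nuclear members there were 6.20 to 6.54 mitochondrial counts in KP4 trametinib against 4.85 to 5.05 in KP4 DMSO, and 3.95 to 4.46 in MiaPaca2 trametinib against 2.09 to 3.50 in MiaPaca2 DMSO, whose highest library was replicate 2.

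Gene by gene, 3 of the 13 mitochondrial mRNAs were higher and 1 lower in KP4 (median log2 fold change 0.22) and 10 higher and 0 lower in MiaPaca2 (median 0.50) by edgeR's test, where 48.1% of all genes tested were called in KP4 (23.9% higher) and 64% in MiaPaca2 (34.4% higher). The share called in KP4 was thus not above that of all genes. MT-ND5 and MT-ND1, membrane subunits of complex I, had the highest log2 fold changes among those called, 0.55 ± 0.14 for MT-ND1 and 0.55 ± 0.18 for MT-ND5 in KP4, and 0.79 ± 0.14 and 0.96 ± 0.19 in MiaPaca2, and MT-ND3 fell in KP4 (−0.27 ± 0.048). Without MiaPaca2 DMSO replicate 2, 9 were higher and 1 lower in KP4, 12 were higher in MiaPaca2, and the response was lower in KP4 than in MiaPaca2 for 13 of 13, against 1 of 13 with it. Of 16596 genes tested without that library, 4180 were higher in KP4, 5628 were higher in MiaPaca2 and 3712 had a lower response in KP4. With it, 19.7% of all genes tested had a lower response in KP4. Between the lines, 13 of 13 were higher in KP4 in DMSO (median 0.64) and 9 of 13 in trametinib (median 0.40), where 32% and 26.5% of all genes tested were called higher. The libraries were made with an mRNA kit that selects poly(A) RNA, and the part of that selection in the mitochondrial values was not tested.

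**Figure D5:**
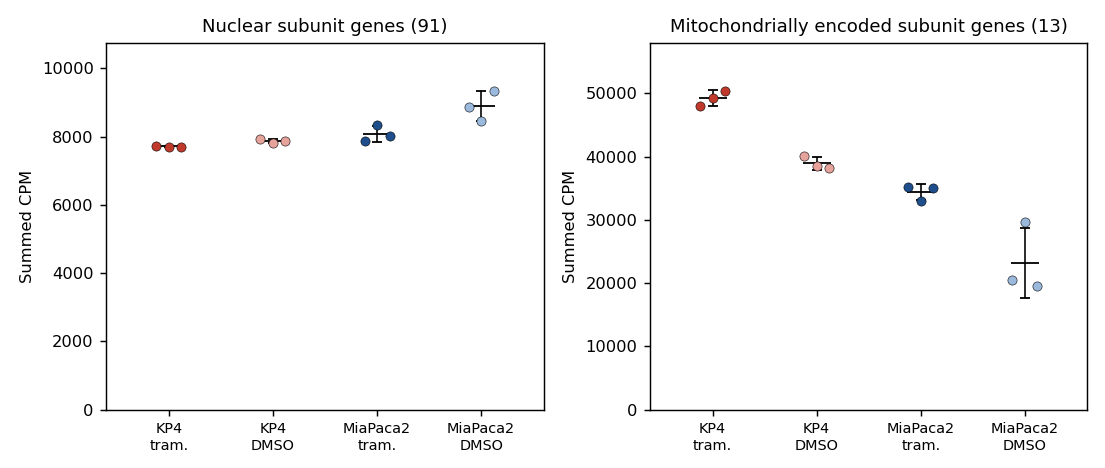
Summed CPM of the 91 nuclear members (left) and of the 13 mitochondrially encoded subunits (right) in each library, trametinib left of DMSO for each line, with the mean ± SD (n = 3). The nuclear sums lie lower and the mitochondrial sums higher with trametinib in both lines, and MiaPaca2 DMSO replicate 2 is the highest mitochondrial value of its group.

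Of the assembly factors, which build the complexes without staying in them, more were called lower than higher in the lists for complexes I to IV. Of 16 for complex I, 2 rose and 4 fell in KP4 and 2 rose and 13 fell in MiaPaca2 (medians −0.13 and −0.31), where 48.1% of all genes tested were called in KP4 (24.1% lower) and 64% in MiaPaca2 (29.7% lower). In KP4 the share of these factors called was below that of all genes. NDUFAF4, an early complex I assembly factor, had 17.7, 18.0 and 17.7 CPM in KP4 trametinib against 25.0, 23.8 and 25.1 in KP4 DMSO (−0.47 ± 0.075, edgeR adjusted p = 9.69e-06), and 13.6, 15.8 and 14.1 CPM in MiaPaca2 trametinib against 24.7, 23.0 and 23.0 in MiaPaca2 DMSO (−0.70 ± 0.082, edgeR adjusted p = 3.37e-08). ACAD9 rose in KP4 (0.27 ± 0.048) and fell in MiaPaca2 (−0.17 ± 0.046).

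SDHAF3, which helps insert the iron-sulfur clusters of SDHB, had 11.8, 13.3 and 12.4 CPM in KP4 trametinib against 21.0, 21.7 and 18.9 in KP4 DMSO (−0.71 ± 0.086, edgeR adjusted p = 1.24e-07). In MiaPaca2 it had 10.8, 10.9 and 10.1 CPM with trametinib against 28.4, 26.5 and 28.8 with DMSO (−1.40 ± 0.089, edgeR adjusted p = 3.29e-13). Those groups did not overlap in either line, and SDHB fell in both. Of the 4 complex II factors, 0 rose and 1 fell in KP4, and 1 rose and 2 fell in MiaPaca2. BCS1L, which inserts the Rieske protein UQCRFS1 into complex III, fell in both lines (−0.37 ± 0.072 in KP4 and −0.74 ± 0.074 in MiaPaca2), and of 6 complex III factors 0 rose and 3 fell in KP4 and 1 rose and 3 fell in MiaPaca2. Of 22 tested complex IV factors, 2 rose and 5 fell in KP4 and 2 rose and 9 fell in MiaPaca2, with SCO2 not tested. Of all genes tested, 48.1% were called in KP4 (24.1% lower) and 64% in MiaPaca2 (29.7% lower). The share of these 22 called was below that of all genes in both lines, and the share lower was above it in MiaPaca2 only. The 5 genes for complex V assembly and control had log2 fold changes of −0.20 to 0.12 in KP4 and did not pass edgeR's test there, and in MiaPaca2 ATP5IF1, the inhibitor of ATP hydrolysis, rose (0.47 ± 0.055) and ATPAF1 and TMEM70 fell (−0.24 ± 0.056 and −0.53 ± 0.092). Without MiaPaca2 DMSO replicate 2, 1 of these 5 rose and 1 fell in KP4, and 1 complex IV factor rose in MiaPaca2.

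Of 12 tested regulators of mitochondrial biogenesis, 1 rose and 9 fell in KP4 and 0 rose and 10 fell in MiaPaca2 (medians −0.27 and −0.36). Of all genes tested, 48.1% were called in KP4 (24.1% lower) and 64% in MiaPaca2 (29.7% lower). TFAM, which packages mitochondrial DNA and starts its transcription, had 105, 98.0 and 95.6 CPM in KP4 trametinib against 143, 149 and 145 in KP4 DMSO (−0.55 ± 0.049, edgeR adjusted p = 9.37e-10), and 81.4, 77.0 and 80.4 CPM in MiaPaca2 trametinib against 134, 121 and 119 in MiaPaca2 DMSO (−0.65 ± 0.052, edgeR adjusted p = 3.20e-11). TFAM did not overlap between treatments in either line. MYC, a transcription factor that many mitochondrial genes respond to, fell in both lines (−0.55 ± 0.046 in KP4 and −1.05 ± 0.047 in MiaPaca2), and ESRRA, NRF1, GABPA and GABPB1, known activators of nuclear subunit genes, fell with log2 fold changes of −0.63 to −0.23 in KP4 and −0.44 to −0.18 in MiaPaca2. PPARGC1B, a co-activator of the same genes, rose in KP4 (0.28 ± 0.072, edgeR adjusted p = 0.00199) and did not pass in MiaPaca2 (0.066 ± 0.075). TFB2M, POLRMT and PPRC1 fell in both lines, YY1 passed in MiaPaca2 (−0.34 ± 0.058) and not in KP4 (−0.042 ± 0.058), TFB1M passed in neither, and PPARGC1A was not tested.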

How the data were processed

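RNA was extracted with a PureLink kit and 12 libraries were made with a Tecan mRNA kit, per the labels' protocols. The authors deposited whole-number read counts per gene without normalization. STAR, DESeq2 and GRCh38 (hg38) were used, per the submitters' processing notes. Counter, annotation and strand setting: not given in the sources used here. Therefore overlapping genes, antisense genes and near-identical copies are uncertain.

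Gene types, positions and overlaps came from GENCODE 29. Counts were filtered with filterByExpr, scaled with TMM and tested with edgeR 4.0.16 in R 4.3.3 by the quasi-likelihood test with robust shrinkage on 1 mean per group over 12 libraries. Benjamini-Hochberg adjustment ran over 16133 genes, and the threshold was 0.05. The fit was tested on simulated data. CPM is TMM-scaled, and the level per length is CPM per kb of the union of exons. No pair of libraries within a group agreed within sampling noise (chi-square test of counts). Named in each comparison are the highest and lowest member of each complex, the 5 highest and 5 lowest of those called, the SDH genes, CYCS, isoform pairs, members called in opposite directions, untested members, up to 4 genes of each other list and all regulators. The others were chosen after their values were seen, and 1 member that the rule names is not reported here. Members and lists were chosen with earlier results of these data known. Alternatives were other scalings, filters and tests (limma 3.58.1, and DESeq2 1.42.0), fewer libraries and a replicate block. Proteins were not analysed here.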

Additional observations from a re-analysis of the deposited data

Results flagged for a closer look

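In 14 members named by the rule, the response to trametinib differed between the lines by edgeR's test of the difference itself, which compares 3 libraries in each of 4 groups. The KP4 log2 fold change exceeded that of MiaPaca2 by 0.60 for UQCRC2, 0.56 for CYC1, 0.40 for SDHA, 0.36 for ATP5MC1, 0.30 for COX5A, 0.23 for SDHC, 0.20 for CYCS and 0.20 for SDHB. It was below that of MiaPaca2 for NDUFC1 (−0.52), ATP5MK (−0.36), NDUFB9 (−0.32), ATP5MC2 (−0.25), COX7A2 (−0.24) and UQCR10 (−0.23). The differences of COX7A2 and UQCR10 did not pass with RLE scaling or DESeq2, nor when any 1 of 5 single libraries was left out for COX7A2 and any 1 of 4 for UQCR10. That of ATP5MK did not pass when any 1 of 5 single libraries was left out, and that of ATP5MC2 did not pass without KP4 trametinib replicate 1.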

How the results depend on the processing

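No called gene named by the rule changed sign under any setting run. In KP4, 13 members were higher and 23 lower with only the libraries compared, and the other settings gave 5 to 9 higher and 13 to 16 lower. The share of all genes called with only the libraries compared is not given here. With 1 library left out at a time the KP4 counts ran from 3 to 11 higher and 9 to 19 lower, those of MiaPaca2 from 10 to 18 higher and 27 to 33 lower, those of the difference from 19 to 27 higher and 2 to 15 lower, those between lines in DMSO from 10 to 15 higher and 33 to 45 lower, and those in trametinib from 10 to 15 higher and 23 to 38 lower. RLE scaling gave 4 lower members in the difference. With the longest transcript, levels per length averaged 1829.8 CPM per kb for complex I, 204 for complex II, 616 for complex III, 778 for complex IV, 1288 for complex V and 37.1 for CYCS, against 1429.9, 90.9, 416, 501.0, 890.5 and 34.1 with the union of exons, as the shorter length requires. The cause of the other shifts was not tested. The earlier form of the quasi-likelihood fit and the members with no shared coding base, both added after seeing the data, kept every count within 1.5 times. Over the named genes and settings, 1914 values kept their side of the threshold, 46 lost it and 8 gained it. The median of the members ran from −0.095 to 0.036 in MiaPaca2 and from −0.024 to 0.089 for the difference when single libraries were left out.

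The labels do not say that replicate numbers pair the libraries. No correlation between same-numbered libraries of a line, in their deviations from the group means, reached 0.1, with 0.021 the highest. Such values cannot show whether those libraries were set up together. The replicate block gave 7 higher and 14 lower in KP4, 15 and 31 in MiaPaca2, 20 and 8 in the difference, 11 and 40 between lines in DMSO and 11 and 34 in trametinib. Groups of 3 and shared coding bases limit what could be called.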

Other observations

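Of the 91 members, 51 have pseudogenes of their name in the annotation. Those of SDHA held 5101 counts over the 12 libraries, against 58400 for SDHA, and those of UQCRFS1 held 1056, against 16590 for UQCRFS1. The 42 of CYCS held 113 counts, against 45746 for CYCS. The pseudogene of NDUFV2 held 351 counts, against 792 for NDUFV2.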
